A study of Saccharomyces cerevisiae with 9 samples.

Results

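The small-subunit cytosolic ribosomal proteins were represented by 68 probe sets of the Affymetrix Yeast S98 (YG-S98) array, out of 9275 probe sets tested. They were chosen by gene symbol alone: a probe set was taken where the platform annotation assigned it to a gene named RPS followed by a number and, for duplicated genes, the letter A or B. The 68 probe sets named 55 of the 5923 genes on the array, of which 33 had a probe set of their own, and 21 of the probe sets named both genes of a pair. A further 60 control probe sets on the array were not tested.

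RNA of Saccharomyces cerevisiae had been hybridised to 9 arrays, 3 for each of 3 groups. BY4743, the strain of the control and dried groups, is a diploid of the S288C family in which both chromosome sets lack functional URA3, LEU2 and HIS3. The control BY4743 culture was grown in rich glucose medium at 30 °C to an A600 of 0.8 and its cells were suspended in medium diluted 20 times at 22 to 25 °C. For dried BY4743, such suspensions were dried for 42 h and then kept at 20% relative humidity for 72 h. The third group was commercial dry active yeast, for which strain, culture and drying are not given in the sources used here. No undried group held for as long as the dried cells was among the arrays, so drying and elapsed time cannot be told apart. In the commercial yeast any differences from the control in strain, culture and drying cannot be told apart either. Nothing in the labels tells separate cultures from repeat hybridisations, and p-values therefore cover the spread among the arrays of a group, whatever its source.

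The small ribosomal subunit, 40S in yeast, binds messenger RNA and holds the decoding site, where codons are matched to transfer RNAs. Its ribosomal RNA and proteins form a head, a body and a platform, and the proteins are assembled onto the precursor RNA in the nucleolus and the cytoplasm. Most of the RPS genes of S. cerevisiae are paralogue pairs left from the whole-genome duplication, and the proteins of a pair are identical or nearly so. In growing yeast the RP genes are among the most strongly transcribed and are controlled together by Rap1, Fhl1, Ifh1 and Sfp1 downstream of the TOR and protein kinase A pathways. Their messenger RNAs are known to fall together when growth stops or cells are stressed. Because paralogues are so alike, an array can tell them apart only where probes fall on the few bases that differ, often in the untranslated ends.

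Signals are given after quantile normalization of the arrays, with a floor of 1, and changes are log2 differences of group means fitted with limma over all 9 arrays. A change was called when the p-value, two-sided and adjusted by Benjamini-Hochberg over the 9275 probe sets, was under 0.05. Background was set on each array at the 95th percentile of 28 control probe sets with absent targets, and lay between 32.2 and 59.5. Between 72.1% and 81.3% of the probe sets of an array were above it. The URA3 control probe set read 1.42 to 8.86 on the control arrays and 2.62 to 8.33 on the dried arrays, and 616 to 810 on the commercial arrays. The other disrupted markers of BY4743 were not at this level: HIS3 was at 1026 ± 114 (SD, n = 3) in control, 129 ± 15.0 in dried and 365 ± 40.2 in commercial yeast, and LEU2 at 84.5 ± 11.4, 29.7 ± 14.4 and 382 ± 54.3. Whether those probes lie in the deleted parts is not known here, so their signal does not check the genotype. The 3′ to 5′ signal ratio of ACT1, an indirect sign of RNA integrity from 1 transcript, differed between the groups. The log2 signal of ACT1 3′ probes over 5′ probes was -0.56 to -0.20 in control, 1.10 to 1.51 in dried and 0.44 to 0.64 in commercial yeast. This ratio was lowest where most RPS probe sets were highest, and its part in the results was not tested. On 5 of the 68 probe sets the first control array read less than 0.5 times each of the other control arrays, and changes in dried cells that rest on it are given with and without it.

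RPS transcripts were lower as a family in dried BY4743 than in control BY4743, and lay in between in commercial yeast. The median signal of the 68 probe sets was 3206 to 3527 on the control arrays, 457.5 to 458.0 on the dried arrays and 1631 to 1770 on the commercial arrays. In dried against control cells 61 of the 68 probe sets were called lower, 1 was called higher and 6 were not called, where 33% of all probe sets were called lower and 36.2% higher. Their median change was -2.91 on the log2 scale, beside 0.04 over all probe sets. Called drops with a fitted size of at least 8-fold numbered 32, beside 4.08% of all probe sets. They include an f probe set of RPS10B that stayed under background on every array. The dried and control arrays did not overlap for 62 of the 68, beside 74.6% of all. The 90 probe sets of the large-subunit RPL genes had 79 called lower, 2 called higher and a median of -2.75. In RNA of a whole culture, fewer cells holding a transcript and less of it per cell cannot be told apart.

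Commercial yeast was compared with dried BY4743 and with control BY4743 on the same arrays, so these comparisons share samples with the first. Against dried cells 60 RPS probe sets were called higher, 1 lower and 7 were not called, with a median change of 1.64 beside 0.00 over all probe sets, where 33.1% of all were called higher and 33.5% lower. The commercial and dried arrays did not overlap for 66 of them, beside 72.8% of all. Against control cells 50 were called lower, 7 higher and 11 were not called, with a median of -0.92 beside -0.01, where 37% of all were called lower and 35.5% higher, and the arrays did not overlap for 59, beside 75.5% of all. The scaling matters for the commercial arrays. Arrays were also scaled to the spike-in controls, which are the BioB, BioC, BioDn and CreX control probe sets of the array. The median of all probe sets then became -1.10 against dried cells and -1.43 against control cells. The RPS median became 0.31 and -2.65, and 16 RPS probe sets were called higher and 2 lower than in dried cells. This scaling was not read as an amount of messenger per cell. The order control above commercial above dried, with all 3 differences called, was found for 47 of the 68 probe sets (69.1%) and for 9.33% of all probe sets under quantile normalization.

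**Figure D1:**
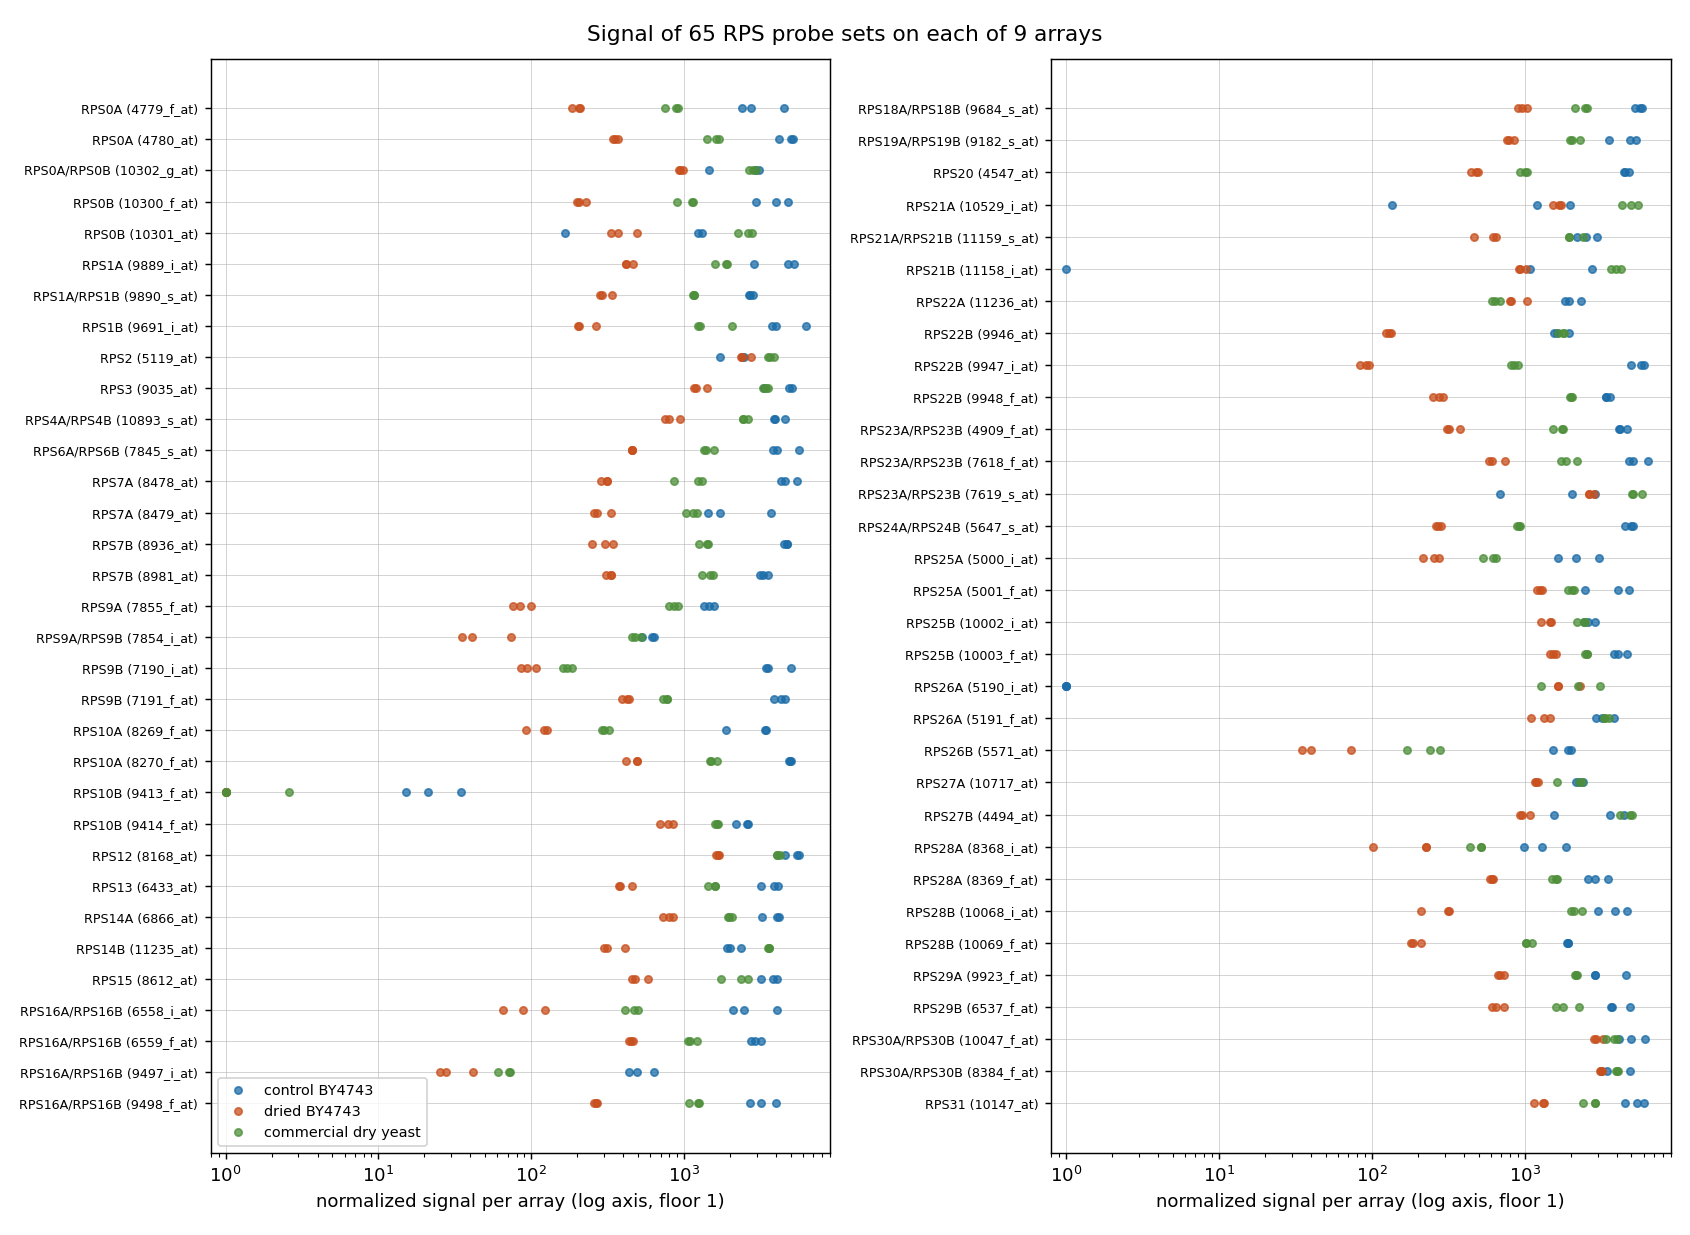
Normalized signal (horizontal log axis, arbitrary units with a floor of 1) of 65 of the RPS probe sets on the 3 control, 3 dried and 3 commercial arrays, 1 point per array. In most the 3 groups stand in the order control, commercial, dried; RPS2, RPS22A, RPS14B and the i probe set of RPS26A are among those that do not, and signals of different probe sets are not comparable as levels.

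The genes without a paralogue give the values least open to sharing of probes, since all 7 that were measured had 1 probe set with no suffix letter. RPS3, a head protein at the entry of the messenger channel, read 3318, 5055 and 4823 in control, 1158, 1410.1 and 1197 in dried, and 3534, 3272 and 3424 in commercial yeast. The dried arrays were the lowest by a wide margin and the control and commercial arrays overlapped, and the changes were -1.79 (SE 0.17, adjusted p 2.68e-05) in dried against control cells and -0.34 (adjusted p 0.0963) in commercial against control cells. Without the first control array the latter was -0.55 with an adjusted p of 0.00349. RPS20, a head protein that the ligase Hel2 ubiquitinates on collided ribosomes, read 4818, 4507 and 4455 in control, 478, 493 and 446 in dried, and 1008, 938 and 1037 in commercial yeast. The 3 groups were far apart, with changes of -3.28 (SE 0.08) for dried and -2.21 for commercial against control cells. From dried to commercial cells RPS20 changed by 1.07, or by -0.35 (adjusted p 0.371) under the scaling to spike-ins.

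RPS12, a protein of the beak of the head, read 4566, 5501 and 5639 in control, 1623, 1665 and 1688 in dried, and 4062, 4074 and 4240.2 in commercial yeast. Its change in dried cells, -1.65 (SE 0.09, adjusted p 1.55e-06), was called, and its -0.34 in commercial against control cells (adjusted p 0.0122) was not called with the values as deposited (-0.09) or with arrays centred on their median (-0.24). RPS31, made as a fusion to ubiquitin and so also a source of that protein, read 4561, 6039 and 5453 in control, 1317, 1341 and 1147 in dried, and 2867, 2872 and 2406 in commercial yeast. The changes were -2.07 and -0.97 against control cells, without overlap of the groups. From dried to commercial cells RPS31 changed by 1.10, or by -0.15 (adjusted p 0.725) under the scaling to spike-ins. RPS15, an essential head protein needed for export of the precursor subunit, fell by 2.87 on the log2 scale in dried cells (SE 0.18), and RPS13, a body protein, fell by 3.20 (SE 0.13). Their control arrays read 3196 to 4062 and 3168 to 4097, and their dried arrays 455 to 584 and 376 to 454.

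RPS2 was the exception among the genes without a paralogue. Its product lies near the decoding site and the entry of the messenger channel. It read 1709, 2463 and 2382 in control, 2392, 2366 and 2749.5 in dried, and 3849, 3665 and 3519.8 in commercial yeast. The dried and control arrays overlapped, with a change of 0.21 (95% interval from the fit -0.13 to 0.55, adjusted p 0.237). The commercial arrays were above all others, by 0.56 over dried (adjusted p 0.0106) and 0.77 over control cells (SE 0.15, adjusted p 0.00184), and both signs turned under the scaling to spike-ins, to -0.48 and -0.82.

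Head and body proteins can be set side by side. Of 26 probe sets for head proteins, 26 were called lower in dried than in control cells, with a median of -2.66. An f probe set of RPS10B is among them, although it stayed under background on every array and has no usable fold. From dried to commercial cells 25 of the 26 had a called rise, with a median of 1.38. Of 42 probe sets for body and platform proteins, 35 were called lower and 1 higher in dried cells, with a median of -3.12. From dried to commercial cells 35 of the 42 had a called rise and 1 a called drop, with a median of 1.94. Among all 9275 probe sets, 33% had a called drop and 36.2% a called rise from control to dried cells. From dried to commercial cells these shares were 33.5% and 33.1%. Against control cells the commercial medians were -1.04 for head and -0.84 for body and platform proteins, and the difference between the lists was not tested. The size of the drop varied within both lists. RPS24, a body protein, had 4540.1, 5096 and 4959 in control and 286, 264 and 273 in dried cells, a change of -4.15 (SE 0.08). Among head proteins the drop of RPS20 was -3.28 and that of RPS12 -1.65.

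Before paralogues are compared, probe sets of the same gene set the scale of what the array resolves. There were 13 RPS genes with more than 1 probe set of their own. Between the probe sets of a gene, the change in dried against control cells differed by a median of 1.22 on the log2 scale, from 0.21 to 12.2, and by more than 1 in 8 of the 13 genes. In commercial against control cells the median gap was 1.19, again with more than 1 in 8 genes. In commercial against dried cells it was 0.30, from 0.016 to 1.22, with more than 1 in 1 gene. The call was the same for all probe sets of a gene in 11, 9 and 11 of the 13 genes for these comparisons in the order given. The gaps were thus large in both comparisons that involve the control arrays, where RPS signals were highest, and the part of signal level in this was not tested. Most of these probe sets carry the suffix letters f, i, s or g, which mark probes shared between sequences or chosen under relaxed rules. Among the 68, 48 carry such a letter.

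**Figure D2:**
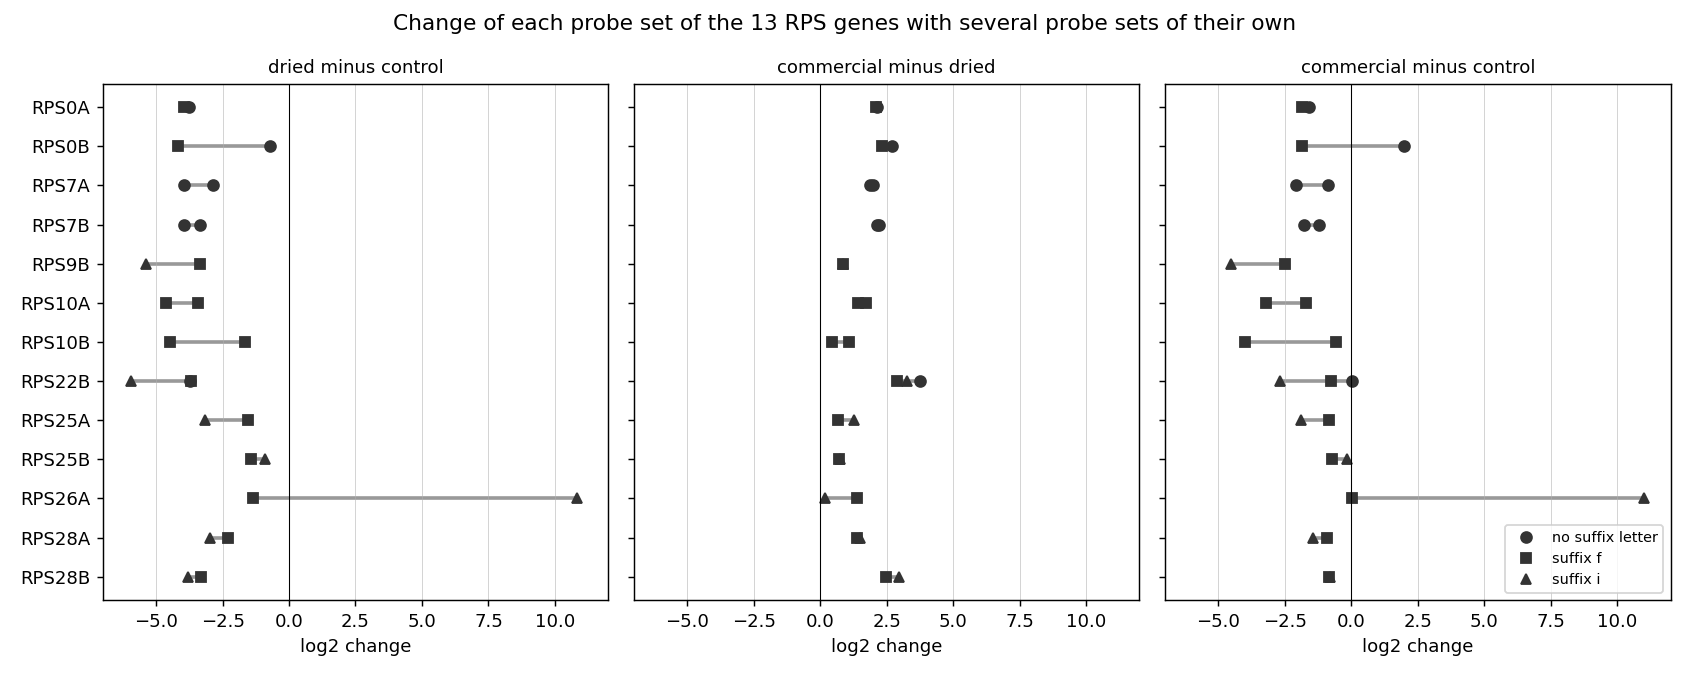
Log2 change of every probe set (1 symbol each, shape by suffix letter) of the 13 RPS genes with several probe sets of their own, in 3 panels for the 3 comparisons; grey lines join the probe sets of a gene. The lines are short in commercial minus dried (median gap 0.30) and longer in the panels that involve control cells (1.22 and 1.19), and the RPS26A point near 11 is set by the floor of 1 on control arrays where it was deposited as 0.

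The widest gap was that of RPS26A. Its product, like that of RPS26B, sits at the exit of the messenger channel and is delivered by the chaperone Tsr2. The f probe set of RPS26A read 3859, 3187 and 2924 in control, 1104, 1347 and 1463 in dried, and 3569, 3298 and 3332 in commercial yeast, a called drop of 1.35 in dried cells. The i probe set was deposited as 0 on all 3 control arrays, against 1647, 1645 and 2293 in dried and 3119, 2243 and 1278 in commercial yeast. Against background this is at least 44.8-fold higher in dried and at least 50.6-fold higher in commercial than in control cells. In dried against control cells the sign was opposite to that of the f probe set. In commercial against control cells the f probe set was not called (0.04, adjusted p 0.805). The i probe set is the 1 RPS probe set called higher in dried than in control cells. RPS22B, a body protein, had 3 probe sets that all dropped but by unequal amounts, -3.72, -5.95 and -3.67. Its i probe set had the largest drop of any RPS probe set, from 6083, 4953 and 5747 in control to 91.1, 96.2 and 83.5 in dried cells. RPS9B had drops of -5.37 and -3.35, and RPS10A of -4.63 and -3.41.

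A few probe sets depended on the first control array. The probe set of RPS0B with no suffix letter read 166, 1304 and 1235 in control, 331, 489 and 369 in dried, and 2258, 2614 and 2788 in commercial yeast. The first control array lay below the dried arrays and the other control arrays above them, and the change in dried cells was -0.72 (SE 0.72, adjusted p 0.404). Without that array it was -1.68 (adjusted p 0.00017), and the excess of commercial over control cells went from 1.98 to 1.02. The call of that excess, at an adjusted p of 0.038, was lost when any dried or commercial array was left out (adjusted p 0.0527 to 0.0919), under the scaling to spike-ins (a change of 0.29) and with arrays centred on their median (1.79, adjusted p 0.0641) or centred without RP probe sets (1.78). The f probe set of RPS0B dropped by 4.19 without such a split, from 4786, 2945 and 3979 to 205, 198 and 226. RPS21A and RPS21B, body proteins needed for late maturation of the subunit RNA, each had an i probe set with a low first control array. That of RPS21A read 135, 1987 and 1206 in control and 1738, 1532 and 1688 in dried cells, and that of RPS21B 1, 1085 and 2765 against 929.5, 1015 and 922. Neither was called in dried against control cells, with 1.26 and 2.73, which became 0.09 and -0.87 without the first control array and were not called then either. In commercial yeast they read 4358, 4996 and 5489 for RPS21A and 3651, 4268 and 3967 for RPS21B, above all other arrays. With all arrays, 1 of these excesses was called, that of RPS21A over control cells (2.84, adjusted p 0.0182). Without the first control array both genes were called higher in commercial yeast, by 1.62 and 2.09 over dried and by 1.71 and 1.22 over control cells. In dried against control cells the s probe set that names both genes fell by 2.16 (SE 0.17). A like split was seen in the s probe set of RPS23, a protein of the decoding site, with 692, 2884 and 2047 in control and 2829, 2653 and 2627 in dried cells, while both f probe sets of RPS23 were called lower, by -3.70 and -3.07. The change of the s probe set in dried cells, 0.76 (adjusted p 0.175), was 0.15 (adjusted p 0.431) without the first control array and 1.17 (adjusted p 0.0376) without the second.

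The RPS30 protein of the shoulder was represented by a pair of f probe sets naming both genes and moved little. They read 6166, 4175 and 4996 in control against 2857, 3268 and 2945 in dried cells, and 4915, 3448 and 3168 against 3181, 3193 and 3096. The former was called lower, by -0.74 (adjusted p 0.0024), and the latter was not called at -0.26 (adjusted p 0.172). RPS10B had an f probe set that stayed under background on every array of all groups and has no usable fold. Its fitted drop nevertheless counts among the 61 called lower and the 32 with a fitted drop of at least 8-fold.

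The paralogues A and B of a pair were compared through the ratio of their signals within each array, so that any factor common to an array cancels. The level of A against B was not read from this ratio, since probes differ in how they bind, and only its change between groups was tested, with limma over all 33 A and B pairs on the array and adjustment over these 33. Of 24 RPS pairs, 13 had a probe set for each gene alone. The other 11, RPS23, RPS24 and RPS30 among them, had only probe sets that name both genes and were not tested.

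In dried against control cells the paralogues changed by different amounts in 6 of the 13 pairs, beside 60.6% of the 33 pairs and 70% of the 20 pairs outside the RPS family. In commercial against dried cells 6 pairs differed, beside 48.5% of all and 50% of the pairs outside the family. In commercial against control cells 7 did, beside 57.6% and 60%. The RPS shares, 46.2%, 46.2% and 53.8%, were not above these backgrounds. Of the 20 pairs outside the RPS family, 16 were RPL pairs, so these backgrounds are mostly other ribosomal protein paralogues. The absolute difference between RPS paralogues had a median of 1.08, 0.69 and 1.11 on the log2 scale in the 3 comparisons. Over all 33 pairs the medians were 1.26, 0.69 and 1.11, so the RPS medians were not above them. The RPS medians were close to the gap between probe sets of the same gene in the comparisons with control cells, and larger than that gap in commercial against dried cells.

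**Figure D3:**
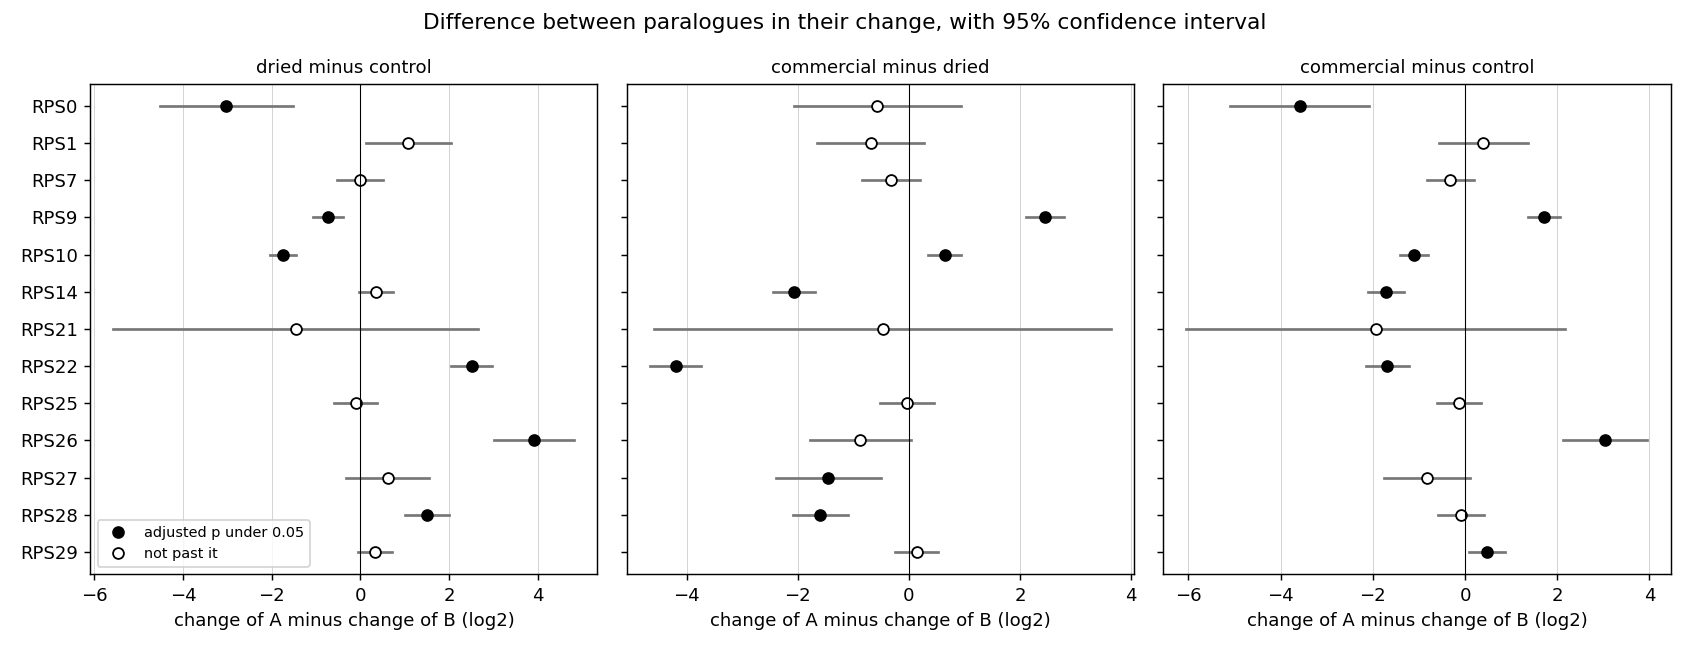
Change of gene A minus change of gene B (log2, horizontal axis) for the 13 RPS pairs with a probe set for each gene, with the 95% confidence interval of the fit, in 3 panels for the 3 comparisons. Filled circles mark adjusted p under 0.05: 6, 6 and 7 pairs; RPS9, RPS10 and RPS22 are filled in all 3 panels, and RPS1, RPS7, RPS21 and RPS25 in none.

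RPS22 was the pair with the largest difference in commercial against dried cells. RPS22A and RPS22B encode a body protein of the subunit. RPS22A read 1832, 2338 and 1962 in control, 807, 1036 and 811 in dried, and 609.7, 639.8 and 691 in commercial yeast. RPS22B, by its probe set with no suffix letter, read 1960.3, 1626 and 1556 in control, 134, 124 and 129 in dried, and 1647, 1772 and 1816 in commercial yeast. RPS22A thus stood lowest in commercial yeast, where RPS22B overlapped the control arrays. The drop in dried cells was -1.21 for A and -3.72 for B, a difference of 2.51 (95% interval 2.05 to 2.98, adjusted p 1.92e-05). From dried to commercial cells the changes were -0.44 and 3.75, a difference of -4.20 (-4.66 to -3.74, adjusted p 1.13e-06).

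RPS22A was the 1 RPS probe set called lower in commercial than in dried cells. That call was lost without the second dried array (-0.33, adjusted p 0.0583) or without the first commercial array (-0.41, adjusted p 0.0581). The other probe sets of RPS22B lay on the same side of RPS22A in both comparisons, with 3.25 and 2.89 from dried to commercial cells. Against control cells they did not: commercial yeast changed by -1.65 in RPS22A, and by 0.03, -2.70 and -0.78 in the 3 probe sets of RPS22B, so that the pair difference of -1.69 held for part of them. It was -0.87 with the brightest probe set of each gene.

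RPS14, a platform protein at the messenger exit, has a known feedback in yeast in which the protein binds the RPS14B transcript and lowers its expression. RPS14A read 4191, 3216 and 4051 in control, 796, 726 and 841 in dried, and 1948, 1960.3 and 2066 in commercial yeast. RPS14B read 2347, 1904 and 1990.1 in control, 409.9, 314 and 298 in dried, and 3537, 3605 and 3585 in commercial yeast. In dried cells both fell, by 2.27 and by 2.62, and the difference of 0.35 (-0.04 to 0.73) did not pass the test, except without the first dried array (0.47, adjusted p 0.0436). Commercial yeast had less RPS14A than control cells (-0.93) and more RPS14B (0.79, or -0.76 under the scaling to spike-ins), a pair difference of -1.72 (-2.10 to -1.33, adjusted p 4.08e-05). Against dried cells that difference was -2.07 (adjusted p 1.54e-05). Each gene had a single probe set, with no suffix letter.

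RPS9, a body protein that binds early in assembly, had the reverse pattern in commercial yeast. RPS9A read 1355, 1564 and 1459 in control, 99.3, 76.4 and 83.8 in dried, and 798, 863 and 912 in commercial yeast. RPS9B, by its f probe set, read 4314, 3859 and 4566 in control, 435, 389 and 420.5 in dried, and 729, 775 and 771 in commercial yeast. From dried to commercial cells A was higher by 3.32 and B by 0.87, or -0.54 for B under the scaling to spike-ins, a difference of 2.45 (2.10 to 2.79, adjusted p 2.3e-06). The i probe set of RPS9B gave 0.86 for the same change. In dried against control cells the difference was -0.73 (-1.07 to -0.39, adjusted p 0.00243), with -4.08 for A between the -5.37 and -3.35 of the probe sets of B. It was not called after an offset of 50 was added to the signals (-0.26, adjusted p 0.137).

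In the RPS26 pair, RPS26B fell further than RPS26A in dried cells. RPS26B read 2011, 1524 and 1919 in control, 73.7, 39.8 and 35.0 in dried, and 169.8, 239.7 and 280.1 in commercial yeast, and only 1 of the dried arrays was above background. The change was -5.27 (SE 0.31) in dried and -3.00 in commercial against control cells. Set against the f probe set of RPS26A, the pair differed by 3.92 (3.01 to 4.83, adjusted p 8.21e-05) and by 3.05 (2.13 to 3.96, adjusted p 0.000203). Between commercial and dried cells the difference was -0.87 (-1.79 to 0.04) and did not pass the test, except without the first dried array (-1.26, adjusted p 0.00752). With an offset of 50 added to the signals it was -0.14 (adjusted p 0.686).

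RPS28 is a head protein, and in yeast RPS28B takes part in the decay of its own messenger RNA. The f and i probe sets of RPS28A changed by -2.28 and -2.95 in dried against control cells, and those of RPS28B by -3.31 and -3.79. The tested pair differed by 1.51 (1.01 to 2.01, adjusted p 0.000408) there and by -1.59 (-2.09 to -1.10) in commercial against dried cells, and in both comparisons all probe sets of A lay on 1 side of all those of B. In commercial against control cells the difference of the tested pair was -0.09 (-0.59 to 0.41). The f probe sets of A and B changed there by -0.91 and -0.85, and the i probe sets by -1.45 and -0.82.

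RPS10 is a head protein. RPS10A, by its brighter probe set, read 4953, 4865 and 5012 in control, 490.2, 489.8 and 418 in dried, and 1498, 1645 and 1463 in commercial yeast. RPS10B, by its brighter probe set, read 2194, 2570.1 and 2594 in control, 785, 847 and 697 in dried, and 1672, 1641 and 1589 in commercial yeast. The pair differed by -1.75 (-2.05 to -1.45), 0.64 (0.35 to 0.94) and -1.11 (-1.40 to -0.81) in the 3 comparisons in the order used above, all called.

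The RPS0 proteins of the back of the body gave differences of -3.03 (-4.53 to -1.52, adjusted p 0.00335) in dried and -3.59 (-5.10 to -2.08) in commercial against control cells. Both rest on the RPS0B probe set with the low first control array, without which they were -2.19 and -2.77. With the brightest probe set of each gene they were 0.45 and 0.26, of the opposite sign and not called. RPS27, a zinc-binding protein of the platform, differed by -1.45 (-2.39 to -0.51, adjusted p 0.0155) between commercial and dried cells. RPS27A read 2398, 2285 and 2177, then 1169, 1222 and 1178, then 2374, 1626 and 2279 in control, dried and commercial yeast, and RPS27B 1554, 4486 and 3601, then 938, 965 and 1077, then 4186, 4898 and 5046. That call was lost without the second dried array (-1.41, adjusted p 0.0521) or the second commercial array (-1.21, adjusted p 0.0587). In dried against control cells the RPS27 difference of 0.62 was not called, but was 1.14 (adjusted p 0.00181) without the first control array.

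**Figure D4:**
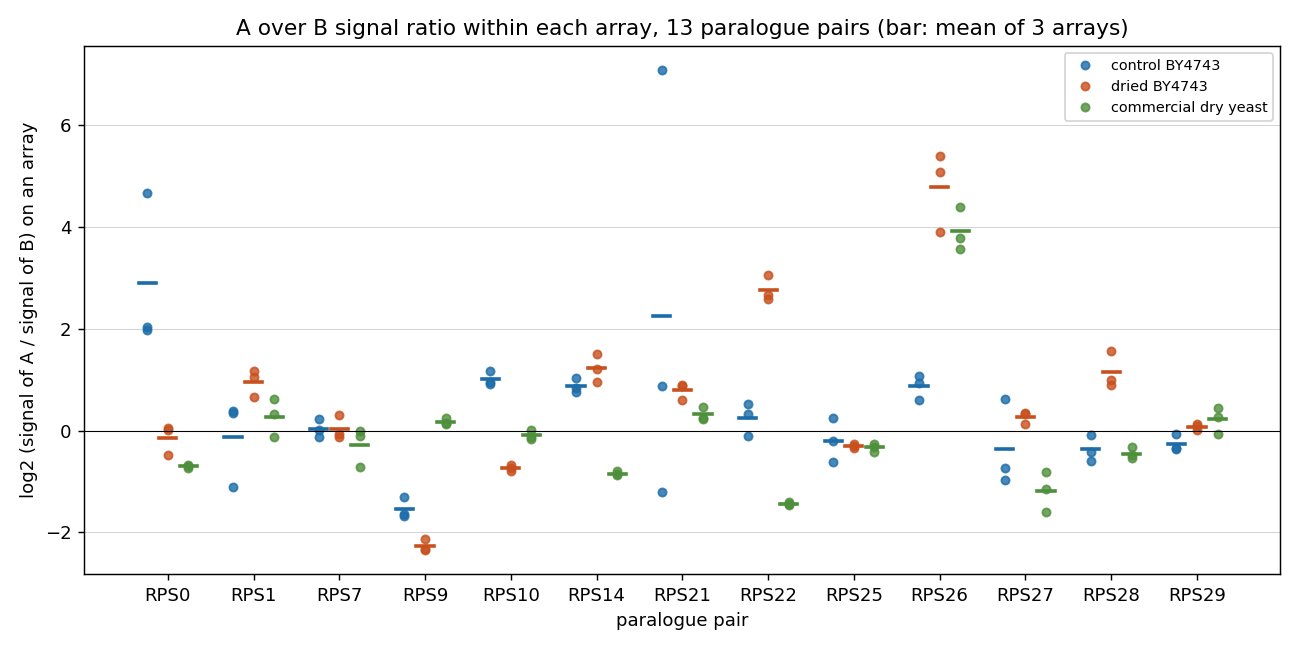
Log2 ratio of the signal of gene A over gene B within each array (vertical axis) for the 13 RPS pairs, 1 point per array and a bar for the mean of 3 arrays, by group. The height of a ratio is not a level of A against B; its shift between groups is the change tested, as for RPS22, where the ratio is -0.10 to 0.52 in control, 2.59 to 3.06 in dried and -1.47 to -1.39 in commercial yeast.

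In the main fit the remaining pairs were not called in any comparison, except RPS29 in commercial against control cells. Their intervals hold for the probe sets compared only. The array ratios of RPS1 and of RPS29 did not overlap between dried and control cells. RPS7A and RPS7B, body proteins ubiquitinated during translational control, had differences of -0.00 (-0.52 to 0.52) in dried and -0.32 (-0.83 to 0.20) in commercial against control cells. In dried against control cells the tested probe sets both changed by -3.96. The other probe set of each gene gave -2.87 for RPS7A and -3.35 for RPS7B. In commercial against control cells these others gave -0.89 and -1.21, beside -2.08 and -1.77 for the tested ones. RPS25, a head protein that some viral and cellular messengers need for internal initiation, had -0.10 (-0.58 to 0.39) and -0.13 (-0.62 to 0.35) with its f probe sets. Its i probe sets lay further apart, with -3.17 for RPS25A and -0.90 for RPS25B in dried and -1.89 and -0.15 in commercial against control cells, so that the probe sets do not agree on whether the genes changed alike. RPS1, a platform protein, had 1.08 (0.12 to 2.05, adjusted p 0.0505) in dried against control cells, which was called without the second (1.33) or the third (1.32) control array and was 0.57 (adjusted p 0.0683) without the first. RPS29, a zinc-binding head protein, was called in commercial against control cells at 0.47 (0.08 to 0.86, adjusted p 0.0414), a call lost when any array other than the first control or the third commercial array was left out (0.34 to 0.49, adjusted p 0.0567 to 0.126). RPS21 had intervals over 8 log2 units wide and cannot be read.

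Genes that act on the same transcripts or on the same subunit were described from lists. Of 15 regulators of RP gene transcription, 11 were called higher and 1 lower in dried than in control cells, beside 36.2% and 33% of all probe sets, with a median of 1.04. CRF1, a corepressor that displaces Ifh1, was at 29.5 ± 6.82 (SD, n = 3) in control, 723 ± 48.3 in dried and 1355 ± 130.5 in commercial yeast, the first at background. SCH9, the kinase that acts below TOR, was at 338 ± 18.1, 2727 ± 149 and 1807 ± 114, and STB3, a repressor that binds promoters of growth genes, at 230.2 ± 19.8, 1032 ± 75.5 and 272 ± 4.39. FHL1, the forkhead activator of these genes, was at 55.5 ± 1.17, 169.9 ± 10.6 and 84.0 ± 9.90.

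Of 23 assembly factors of the small subunit, 17 were called lower and 3 higher in dried cells, beside 33% and 36.2% of all probe sets, with a median of -1.18, led by the helicase PRP43 at -3.26 and the methyltransferase EMG1 at -3.00. The 3 called higher were RIO1, PNO1 and BUD23. Of 12 proteins that bind the finished subunit, 10 were called lower and 1 higher, beside the same shares of all probe sets, with a median of -2.26, and the largest drops were of PRT1 (-3.58) and RPG1 (-3.17), subunits of initiation factor eIF3. ASC1, a scaffold on the head of the subunit, read 1979.85 ± 469.8 in control, 572 ± 54.8 in dried and 3471 ± 233 in commercial yeast. It rose by 2.60 from dried to commercial cells, above the RPS median of 1.64 in the same comparison. Against control cells the medians in commercial yeast were 0.59 for regulators, -0.43 for assembly factors and -1.12 for partners.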

How the data were processed

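RNA was measured on 9 one-colour arrays, and groups were taken from the sample titles. The authors deposited linear intensity values, 1 for each probe set of an array. Per the labels' protocols, the array maker's expression software produced them and a mixed model followed a signed rank test; no software version is given in the sources used. The mean of each deposited array after trimming 2% at each end was 500.2 to 500.3, and array medians were 159.9 to 194.7. The growth and drying text of the commercial arrays repeats that of BY4743 and was not used.

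Signals under 1 were set to 1, log2 was taken, and limma 3.58.1 (R 4.3.3) was used for quantile normalization of the arrays. The 9 arrays were fitted with a mean for each group (lmFit and eBayes, with 1.64 prior and 6 residual degrees of freedom). The 3 contrasts were tested two-sided with Benjamini-Hochberg adjustment over 9275 probe sets. Quantile normalization hides a change of the whole messenger pool, and the scaling to spike-ins was not used to measure one. For paralogue pairs the within-array log2 ratio was fitted in the same way over 33 pairs (1.87 prior degrees of freedom). A gene was represented by a probe set that names it alone, without a suffix letter where there was one and otherwise the brightest. Where a probe set was at background on all 3 arrays of a group, a bound against background is given. Scripts were tested on simulated data. With 3 arrays per group, the number of arrays limits the precision.

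Gene names are those of the platform annotation brought up to date with the RefSeq table of assembly R64. The probes' genome build is unknown and coordinates are left out. The members, the lists and the rules were chosen with earlier results of these data known. The rule for named genes took the 6 highest and 6 lowest members of each comparison among probe sets naming 1 gene, the genes without a paralogue, the genes of the 6 pairs with the largest differences, and up to 3 genes per list and comparison. RPS1, RPS7, RPS23, RPS24, RPS25, RPS29 and RPS30 and the 3 assembly factors that were higher are named outside it, after their values were seen. Values of 3 of the 68 probe sets are not reported one by one here, but count in the totals. Alternatives covered the scaling, dim signals, shared probes, the probe set per gene, a replicate block and leaving out each array.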

Additional observations from a re-analysis of the deposited data

How the results depend on the processing

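Between them, the alternatives recomputed 4089 single values of probe sets and pairs. Of these, 3934 kept their side of the threshold, 72 lost the call, 57 gained one and 26 changed sign with a call before or after. The 3934 include values that changed sign without a call before or after. Under the scaling to spike-ins the f probe sets of RPS30 did so in commercial against dried cells (0.31 to -0.71 and 0.35 to -0.62). Median RPS changes are given in the order dried against control, commercial against dried and commercial against control; values not listed moved by less than the spread between arrays. With the values as deposited the last 2 were 1.54 and -1.00. With arrays centred on their median the medians were -3.05, 1.57 and -1.15, and with centring that left out the cytosolic RP probe sets, chosen after seeing the data, -3.05, 1.56 and -1.16. An offset of 50 gave -2.65 and 1.55 for the first 2. Scaling to the spike-ins gave -3.28, 0.31 and -2.65, with 16 probe sets called higher and 2 lower than in dried cells and 1 higher than in control cells. This scaling moved the median of all probe sets to -0.29, -1.10 and -1.43. The 20 probe sets with no suffix letter gave 18 called lower and 0 called higher in dried cells (limma) with a median of -2.74, 19 higher in commercial than in dried cells with a median of 1.96, and 13 lower and 3 higher than in control cells. Of their 5 pairs, 2, 3 and 3 were called; the lower counts follow from fewer probe sets. With the floor raised to background, also chosen after seeing the data, 2 probe sets were called lower in commercial than in dried cells. Leaving out 1 array gave medians of -3.01 to -2.87, 1.62 to 1.69 and -1.00 to -0.88, and pair counts of 6 to 7, 5 to 8 and 6 to 7. Probe sets called lower then numbered 61 to 62, 0 to 1 and 48 to 50, and probe sets called higher 1 to 2, 59 to 65 and 5 to 9. Same-numbered arrays of different groups had correlations of -0.040 to 0.043 in their deviations, and differently numbered arrays -0.057 to 0.077. With 3 arrays per group, whether the replicate numbers pair the samples cannot be told from these values. A fit with the replicate number as a block left 61 lower, 60 higher and 50 lower, and called RPS1 as a seventh pair in dried against control cells (1.08, adjusted p 0.0421). Signs that changed with a call before or after were, under the spike-in scaling in commercial against dried cells, RPS25B -0.53 and -0.56, RPS25A -0.13 and -0.63, RPS27A -0.52, RPS31 -0.15, RPS20 -0.35, RPS2 -0.48, the i probe set of RPS26A -1.07, RPS16 -0.11, RPS9B -0.32 and -0.54, RPS28A -0.036 and RPS10B -0.31. Against control cells they were the g probe set of RPS0 at -1.46, RPS14B -0.76, RPS2 -0.82, the f probe set of RPS26A -1.48, RPS30 -1.33 and RPS22B -1.74. RPS22B was also -0.24 with median centring and -0.25 with centring without RP probe sets. With the brightest probe set per gene the RPS0 pair was 0.45 and 0.26 against control cells, and with the floor at background the dim probe set of RPS10B was 0.31 and -0.45. Beyond the settings' own construction, the cause of these changes was not tested.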

Other observations

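Of the RPS genes with a probe set, RPS14B and RPS22A were the only ones that adjoin each other in the gene order of the RefSeq table of assembly R64, on chromosome X. They differed in commercial yeast: RPS14B was 0.79 above control cells on the log2 scale and RPS22A was at -1.65. In dried against control cells both fell, by 2.62 and by 1.21. The difference between these neighbours was not tested.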
